A study of Mus musculus with 8 samples.

Results

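The genes described here are 9 members of the pathway that makes extracellular adenosine and of the cyclic AMP (cAMP) pathway that it engages, measured in mouse regulatory T (Treg) cells with and without Bcl11b, a zinc finger transcription factor of T cells. They were chosen by symbol from the 23997 genes of the deposited table and all 9 were found: the ectoenzymes Entpd1 and Nt5e, the deaminase Ada, the adenosine receptor Adora2a, the kinase subunit Prkaca and the phosphodiesterases Pde3b, Pde4b, Pde4d and Pde7a. All had a mean above the filter of 1 FPKM (fragment counts scaled by transcript length and by library size), so all 9 were tested. RNA sequencing covered 8 samples of sorted CD4+YFP+ cells from C57BL/6 mice, taken from spleen and draining lymph nodes. The 4 deficient samples had the genotype Bcl11b f/f Foxp3-YFP-Cre/+ and the 4 sufficient samples Bcl11b f/+ Foxp3-YFP-Cre/+. Both groups thus carried Cre at 1 Foxp3 allele, so deletion was directed at cells that express it, and deletion in other cells was not tested. The sufficient cells carried 1 floxed Bcl11b copy as well, which Cre can also delete. Foxp3 is X-linked, so such mice also hold Treg cells without Cre, which a sort for YFP leaves out. The labels state neither age nor how many animals gave a sample.

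Extracellular ATP is cut to AMP by CD39, the product of Entpd1, and AMP is cut to adenosine by CD73, the product of Nt5e. Adenosine binds Gs-coupled receptors on T cells, which raise cAMP through adenylyl cyclases, and cAMP activates protein kinase A. Phosphodiesterases end the signal by hydrolysing cAMP. Treg cells are known for CD39 and CD73 on their surface and for high cAMP, and Pde3b is a known target of repression by Foxp3, the factor that defines the lineage.

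The 8 samples were counted as 5 independent libraries. Replicate 1 paired with 3 in each group, and 2 with 4 in the deficient group, had a gene-to-gene spread of 1.11 to 1.22 times what counting fragments alone gives, against 1.83 to 2.82 times for the 9 other pairs of a group. Each such pair, which differed by little more than sampling noise, was averaged and counted as 1 library, which left 2 deficient and 3 sufficient libraries. Depth, estimated from the steps between low values, was approximately 2600000 to 11500000 fragments. Bcl11b ranged from 18.7 to 24.6 FPKM in the deficient and from 39.1 to 46.5 FPKM in the sufficient samples, a value over the whole gene that does not single out the deleted stretch. CD4 T cell markers were high in all libraries, with Cd3e at 249.5 to 298 FPKM. The 7 in the list summed to 2420 and 2623 FPKM in deficient libraries and 2660 to 3144 FPKM in sufficient ones. Of these 7, 4 were lower in both deficient libraries than in any sufficient one and 1 was higher. The same held for 17.9% and 18.9% of all genes tested. By limma 0 of the 7 were called, with 3 lower at an unadjusted p under 0.05. Macrophage markers were higher in deficient libraries, with 15 of 15 tested markers above the sufficient libraries. Their summed level was 394 and 744 FPKM in the deficient libraries, against 28.2 to 101 FPKM in the sufficient ones. The labels do not tie libraries to separate animals, and p-values therefore reflect only how far these libraries differ, which may be technical.

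Cells that lacked Bcl11b had 3.85 times the Pde3b level of sufficient cells, and Pde3b was the only member that passed the test. Pde4a and Pde2a, phosphodiesterase genes outside the 9, rose as well. Nt5e and Pde4d were lower in every deficient library but did not pass. Entpd1, Ada, Adora2a and Prkaca had overlapping levels in the 2 groups. Of the 9 members 1 was higher and 0 were lower (limma, Benjamini-Hochberg adjusted p under 0.05), beside 1.93% of all 10614 tested genes higher and 0.697% lower. At an unadjusted p under 0.05, 2 members were higher and 2 lower, beside 17.8% of all genes tested in either direction (994 higher and 897 lower). The deficient and sufficient libraries did not overlap in 5 members, 2 higher and 3 lower, while the same held for 36.7% of all genes tested. The median log2 fold change was -0.22 over the members and -0.01 over all genes tested. Fewer cells of a type and less RNA per cell cannot be told apart in such bulk libraries.

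To show which start regions of these genes carry the site that cAMP-responsive factors bind, the 250 bases before annotated starts were searched. RefSeq start regions (GRCm38.p6) were at hand for 6 of the 9 members, with 11 windows in all, and for 5 of the 6 other pathway genes that passed the test (Pde2a, Pde4a, Ptger4, Rapgef4 and Vipr1), also with 11 windows. The start regions of the remaining one, Crem, were not analysed here. Pde3b, Adora2a and Pde7a had no entry. The full cAMP response element TGACGTCA was in 0 of the 11 member windows and in 1.55% of all 32851 windows. Its core TGACG, which also lies within the full element, was in 4 of the 11 member windows (of Entpd1, Pde4b and Prkaca), in 2 of the 11 windows of the other genes and in 17.8% of all windows. The forkhead site TGTTTAC, of the class that Foxp3 can bind, was in 0 of the member windows and in 3.17% of all windows. Both strands were searched, and a match is a string in the window and not a shown binding site. Windows free of annotated exons are printed for 5 genes 5′ to 3′ on the gene's strand, with TGACG or its complement in capitals: an internal start of Entpd1 (chr19:40659520-40659769, plus strand), the start of Prkaca (chr8:83972728-83972977, plus strand), an internal start of Pde4a (chr9:21183851-21184100, plus strand), and the starts of Vipr1 (chr9:121642466-121642715, plus strand) and Ptger4 (chr15:5244188-5244437, minus strand), the last 3 being genes that passed the test. Counted in bases from the start, the copies begin at -120 and -6 in Prkaca, -183 in Entpd1, -50 in Pde4a and -13 in Vipr1, and the Ptger4 window has none.
Entpd1: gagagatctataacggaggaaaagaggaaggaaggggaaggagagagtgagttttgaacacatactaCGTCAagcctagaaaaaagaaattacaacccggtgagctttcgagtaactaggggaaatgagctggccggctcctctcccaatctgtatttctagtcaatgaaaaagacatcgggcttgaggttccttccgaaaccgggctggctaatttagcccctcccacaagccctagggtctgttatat
Prkaca: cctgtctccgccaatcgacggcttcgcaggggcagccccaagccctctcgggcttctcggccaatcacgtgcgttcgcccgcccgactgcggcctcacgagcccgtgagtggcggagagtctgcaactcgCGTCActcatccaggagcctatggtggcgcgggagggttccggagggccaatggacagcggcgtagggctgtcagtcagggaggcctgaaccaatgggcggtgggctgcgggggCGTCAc
Pde4a: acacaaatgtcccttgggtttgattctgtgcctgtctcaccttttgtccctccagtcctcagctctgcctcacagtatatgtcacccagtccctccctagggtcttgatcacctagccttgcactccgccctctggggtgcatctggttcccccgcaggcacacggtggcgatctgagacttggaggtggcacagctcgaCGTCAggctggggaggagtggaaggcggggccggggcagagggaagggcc
Vipr1: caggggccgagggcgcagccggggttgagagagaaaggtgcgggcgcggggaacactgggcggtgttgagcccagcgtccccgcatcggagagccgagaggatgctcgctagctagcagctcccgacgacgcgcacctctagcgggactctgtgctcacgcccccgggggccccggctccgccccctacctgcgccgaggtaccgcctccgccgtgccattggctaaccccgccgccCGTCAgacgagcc
Ptger4: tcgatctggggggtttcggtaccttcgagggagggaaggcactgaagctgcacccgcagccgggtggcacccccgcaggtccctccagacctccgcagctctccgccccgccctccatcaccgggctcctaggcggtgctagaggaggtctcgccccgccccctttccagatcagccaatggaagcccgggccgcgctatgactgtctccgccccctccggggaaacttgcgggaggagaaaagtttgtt

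In the sufficient libraries the most abundant member was Nt5e, at 81.3 ± 10.6 FPKM (SD, n = 3). Pde4b (35.2 ± 2.28 FPKM), Adora2a (31.3 ± 11.97 FPKM) and Prkaca (27.7 ± 2.603 FPKM) followed, and Adora2a overlapped with both of its neighbours in this order. Pde4d (14.9 ± 2.42 FPKM), Entpd1 (11.8 ± 1.88 FPKM) and Pde7a (9.65 ± 0.768 FPKM) came next, and each of these overlapped with the neighbour below or above it. Ada (7.67 ± 0.708 FPKM) and Pde3b (3.69 ± 0.890 FPKM) were lowest, and neither overlapped with its neighbours. FPKM is scaled by transcript length, so these levels can be compared between genes only approximately, and their order was not tested. In the deficient libraries Pde3b was above Ada, Entpd1, Pde4d and Pde7a.

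**Figure D1:**
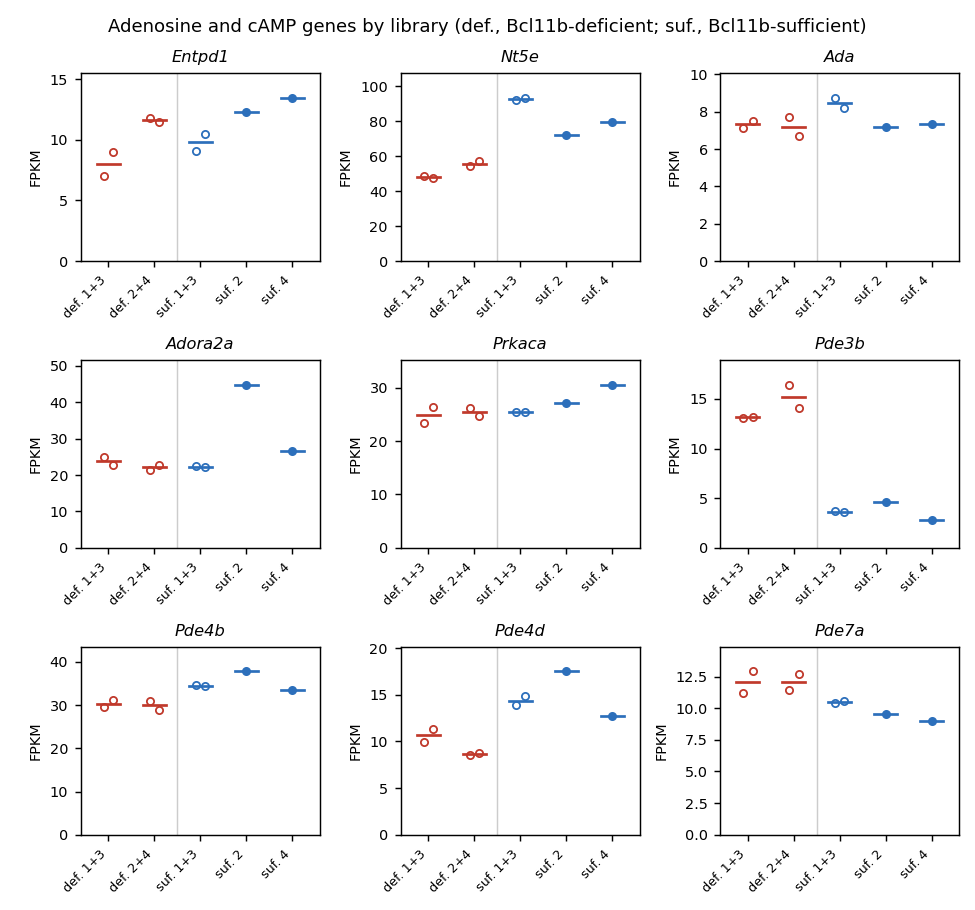
FPKM of each member in the 5 independent libraries, with red for Bcl11b-deficient and blue for Bcl11b-sufficient. Open points are the 2 near-identical columns of a library, filled points are single columns and bars are library means. Pde3b lies between 13.1 and 16.4 FPKM in deficient samples and between 2.82 and 4.60 FPKM in sufficient ones.

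Among the enzymes that make adenosine, Nt5e, the ecto-5′-nucleotidase, was lower without Bcl11b in each library, while Entpd1, the ectonucleotidase that precedes it, varied as much within groups as between them. In the deficient samples, in the order of replicates 1 to 4, Nt5e measured 48.8, 54.1, 47.2 and 57.2 FPKM. Sufficient samples, in the same order here and for every later gene, gave 92.2, 71.8, 93.3 and 79.4 FPKM. No deficient sample reached the lowest sufficient one. The deficient mean of 51.8 ± 5.42 FPKM (SD, n = 2) was 63.7% of the sufficient mean. On the log2(FPKM + 1) scale, which understates changes of low genes, the log2 fold change was -0.64 (SE 0.14, 95% interval -0.96 to -0.31), and it did not pass the test (limma adjusted p = 0.0666). With robust empirical Bayes the adjusted p was 0.0485 in limma, so the call turns on that setting.

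Entpd1 measured 7.02, 11.8, 9.03 and 11.5 FPKM in deficient and 9.06, 12.3, 10.5 and 13.5 FPKM in sufficient samples. Replicates 1 and 3 were the low ones in both groups, and the groups overlapped. The difference had a log2 fold change of -0.25 (SE 0.19, 95% interval -0.70 to 0.19, limma adjusted p = 0.535). The interval therefore spans a fall of 0.70 as well as a small increase. Entpd1 is also abundant in macrophages, whose markers were higher in deficient libraries, and the part of those cells in its level was not tested. The ratio of Nt5e to Entpd1 was 5.98 and 4.78 in the deficient libraries and 9.48, 5.86 and 5.90 in the sufficient ones, so it overlapped between groups.

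Ada, adenosine deaminase, which converts adenosine to inosine, varied little between samples. It measured 7.14, 7.74, 7.504 and 6.67 FPKM in deficient and 8.75, 7.16, 8.21 and 7.36 FPKM in sufficient replicates. The log2 fold change of Ada was -0.07 (SE 0.13, 95% interval -0.36 to 0.23, limma adjusted p = 0.827).

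Adora2a, a Gs-coupled adenosine receptor, stood out in 1 sufficient library only. It measured 24.99, 21.4, 22.8 and 22.8 FPKM without Bcl11b and 22.5, 44.9, 22.1 and 26.7 FPKM with it. Sufficient replicate 2 had 2.01 times the level of the lowest sufficient library, and the other sufficient libraries were close to the deficient ones. The log2 fold change was -0.37 (SE 0.26, 95% interval -0.99 to 0.26, limma adjusted p = 0.520), and without sufficient replicate 2 it was -0.08. The remaining adenosine receptor genes Adora1, Adora2b and Adora3 stayed below the filter, with highest values of 0.0763, 0.312 and 0.402 FPKM in any sample.

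Prkaca, the alpha catalytic subunit of protein kinase A, had similar values in both groups. It measured 23.5, 26.3, 26.3 and 24.8 FPKM in deficient and 25.4, 27.1, 25.5 and 30.6 FPKM in sufficient replicates. The groups overlapped, with a log2 fold change of -0.13 (SE 0.11, 95% interval -0.40 to 0.14, limma adjusted p = 0.604). With library totals made equal, a scaling under which the median log2 fold change over all genes was 0.18, the signs of Ada (0.12) and Prkaca (0.08) turned positive, and both lay below that median.

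Of the 4 member phosphodiesterases, 1 passed the test. Pde3b, a cAMP phosphodiesterase that cyclic GMP inhibits, rose. It measured 13.1, 16.4, 13.2 and 14.0 FPKM without Bcl11b and 3.67, 4.60, 3.61 and 2.82 FPKM with it. The lowest deficient sample was well above the highest sufficient one. Deficient libraries averaged 14.2 ± 1.49 FPKM (SD, n = 2) against 3.69 ± 0.890 FPKM (SD, n = 3), with a log2 fold change of 1.71 (SE 0.18, 95% interval 1.28 to 2.14, limma adjusted p = 0.00982). By p-value Pde3b was number 32 of the 10614 genes tested, and by the size of its increase number 99. An exact permutation test, two-sided, cannot go below 0.1 with its 10 assignments of libraries, and p = 0.1 was reached. The call ended without either deficient library, at log2 fold changes of 1.81 and 1.61 (limma adjusted p = 0.0824 without replicates 1 and 3 and 0.0912 without replicates 2 and 4), and with no filter on low values (0.0540).

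Cell markers were read beside Pde3b in the same libraries. Foxp3 averaged 153 ± 0.517 FPKM without Bcl11b and 187 ± 18.8 FPKM with it, and its log2 fold change of -0.28 did not pass (limma adjusted p = 0.285). The 8 Treg markers summed to 715 and 722 FPKM in deficient libraries and 1246 to 1425 FPKM in sufficient ones, with 3 of 8 called lower. All 8, Foxp3 included, were lower in both deficient libraries than in any sufficient one, beside 17.9% of all genes tested. At an unadjusted limma p under 0.05, 7 of the 8 were lower, beside 897 of all 10614 genes. Markers of naive conventional CD4 T cells, which also express Pde3b, summed to 1558 and 1612 FPKM without Bcl11b and 1432 to 1542 FPKM with it, and 1 of 10 was called higher and 1 lower. The 17 macrophage markers summed to 1.89 times as much in the deficient library of replicates 1 and 3 as in that of replicates 2 and 4, and Pde3b was 0.862 times as high there. Within that list Itgam (3.72 and 6.74 FPKM in these libraries) and Ly6c2 (51.7 and 63.5 FPKM) ran the other way, while the rest were higher in replicates 1 and 3. The 9 NK and innate-like markers summed to 355 and 399 FPKM in deficient libraries and 11.3 to 35.7 FPKM in sufficient ones, with 4 of 7 tested called higher and a ratio of 0.889 between the same deficient libraries. Fcer1g (247 and 283 FPKM) and Tyrobp (64.9 and 38.6 FPKM) made up most of the deficient sums. Of the 7 tested, 6 were higher in both deficient libraries than in any sufficient one, and Eomes overlapped. Ncr1 and Klre1 were low in all libraries. The part of the cells behind these marker lists in the Pde3b result was not tested.

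Pde4b, a cAMP-specific phosphodiesterase and the second most abundant member, measured 29.5, 31.0, 31.2 and 28.9 FPKM in deficient and 34.6, 37.8, 34.3 and 33.4 FPKM in sufficient replicates. All deficient samples were below all sufficient ones, by a small margin. Its log2 fold change was -0.22 (SE 0.10, 95% interval -0.46 to 0.03, limma adjusted p = 0.333). With library totals made equal it was -0.01. Pde4d, its paralogue, measured 9.99, 8.59, 11.3 and 8.81 FPKM in deficient and 13.9, 17.5, 14.8 and 12.7 FPKM in sufficient replicates. Here too the groups did not overlap, and the deficient mean was 65.1% of the sufficient mean. The log2 fold change of -0.57 (SE 0.16, 95% interval -0.94 to -0.19) did not pass (limma adjusted p = 0.135).

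Pde7a, a high-affinity cAMP phosphodiesterase, had slightly higher values without Bcl11b. It measured 11.2, 11.4, 12.9 and 12.7 FPKM in deficient and 10.4, 9.53, 10.5 and 8.95 FPKM in sufficient replicates. Every deficient sample was above every sufficient one, yet the log2 fold change of 0.30 (SE 0.12, 95% interval 0.02 to 0.57) did not pass over all genes (limma adjusted p = 0.252). The near-identical samples show how closely a value repeats: over 27 comparisons in the 9 members, the higher value exceeded the lower by a median factor of 1.06 and at most 1.29.

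**Figure D2:**
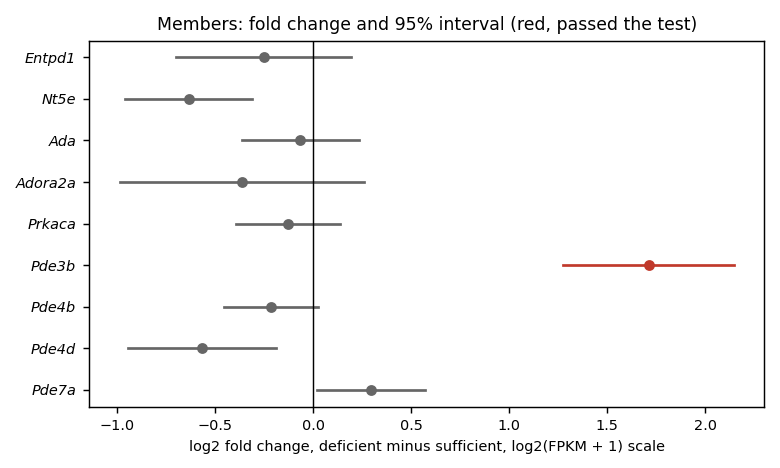
Difference between deficient and sufficient means of log2(FPKM + 1) for each member, with its 95% interval from limma as a line. Pde3b at 1.71 is the only member in red, which marks an adjusted p under 0.05, and the intervals of Nt5e, Pde4d and Pde7a leave out 0 without passing after adjustment.

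In the list of other genes with phosphodiesterase symbols, 2 of 7 tested genes rose without Bcl11b and 0 fell (limma, also 0 at an unadjusted p under 0.05). Over all genes tested, 1.93% were called higher and 0.697% lower. Of the 7, Pde4dip, Pde6d and Pde12 do not encode enzymes that hydrolyse cAMP. Pde4a, a paralogue of Pde4b and Pde4d, measured 8.45, 7.51, 6.70 and 7.76 FPKM in deficient replicates and 1.09, 1.42, 0.805 and 1.03 FPKM in sufficient ones. That is 6.72 times as much, with a log2 fold change of 2.02 (SE 0.17, limma adjusted p = 0.00800). Pde2a, which hydrolyses both cAMP and cyclic GMP and is stimulated by the latter, measured 167, 169, 166 and 174 FPKM in deficient replicates and 77.1, 68.9, 76.8 and 95.8 FPKM in sufficient ones. It was the most abundant phosphodiesterase transcript in every library and rose 2.10 times (log2 fold change 1.07, SE 0.15, limma adjusted p = 0.0212). The other 5 tested genes of this list did not pass, and 10 genes of it were below the filter.

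The make-up of phosphodiesterase transcripts differed between groups, as described here without a test for 8 tested genes whose products hydrolyse cAMP, a set drawn up after their values were seen. They summed to 271 and 273 FPKM in the deficient libraries and to 167 to 182 FPKM in the sufficient ones. Pde2a made up 62.2% ± 1.49 (SD, n = 2) of this sum in deficient and 46.6% ± 5.81 (SD, n = 3) in sufficient libraries. Pde3b made up 5.22% ± 0.562 against 2.16% ± 0.594. Pde4b made up 11.1% ± 0.074 against 20.5% ± 2.07, although its own level differed little. The 4 member phosphodiesterases alone summed to 66.1 ± 0.2 FPKM without Bcl11b and 63.5 ± 5.76 FPKM with it, and the share of Pde3b in it was 21.5% ± 2.32 against 5.76% ± 0.878.

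**Figure D3:**
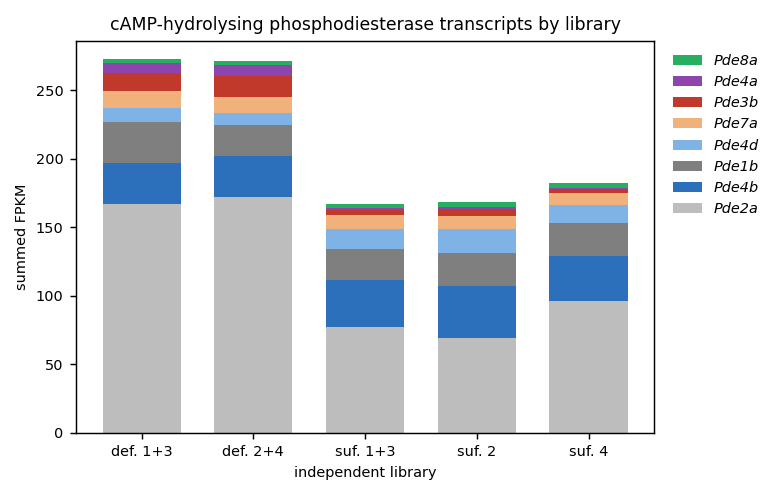
Stacked bars of FPKM for 8 phosphodiesterase genes in the 5 independent libraries (def., deficient, and suf., sufficient). Bars reach 271 and 273 FPKM in deficient and 167 to 182 FPKM in sufficient libraries, and the light grey Pde2a segment at the base is the largest in each bar.

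The remaining pathway was followed with 105 genes listed by role, of which 73 passed the filter. Of these, 4 were higher and 2 lower, beside 2.63% of all genes called in either direction, and their median log2 fold change was 0.04. Among enzymes and transporters of nucleotides and adenosine, 0 of 24 were called by limma, with 2 at an unadjusted p under 0.05. That unadjusted threshold was passed by 17.8% of all genes tested. In this list Slc29a1, an equilibrative nucleoside transporter that carries adenosine, had the lowest p, at 35.5 ± 0.243 against 46.4 ± 3.56 FPKM (limma adjusted p = 0.137). Nt5c, a cytosolic nucleotidase and the most abundant of them, was at 96.4 ± 0.198 against 111 ± 4.81 FPKM (limma adjusted p = 0.335). Among adenylyl cyclases, 3 of 10 passed the filter and 0 were called by limma, with 2 at an unadjusted p under 0.05. The most abundant was Adcy7, at 82.8 ± 1.05 against 63.8 ± 5.67 FPKM (limma adjusted p = 0.145).

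Receptors that couple to Gs moved in both directions. Ptger4, a prostaglandin E receptor, measured 18.3, 17.1, 17.8 and 15.5 FPKM in deficient replicates and 33.2, 34.2, 35.5 and 28.3 FPKM in sufficient ones. It fell to 53.1% of the sufficient level (log2 fold change -0.87, SE 0.12, limma adjusted p = 0.0235). Vipr1, a receptor for vasoactive intestinal peptide, measured 19.6, 11.8, 17.9 and 13.1 FPKM in deficient replicates and 3.75, 7.38, 3.68 and 5.37 FPKM in sufficient ones. It rose 2.85 times, with a log2 fold change of 1.37 (SE 0.27) close to the threshold (limma adjusted p = 0.0485), and 12 of 22 alternative analyses ended its call. The other 9 tested genes of this list did not pass, among them the most abundant, the inhibitory G protein subunit Gnai2, at 353 ± 0.767 against 340 ± 4.18 FPKM (limma adjusted p = 0.829).

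Downstream of cAMP, 1 of 16 tested genes of protein kinase A and other effectors was higher and 0 were lower by limma, with 4 higher and 0 lower at an unadjusted p under 0.05, a threshold that 994 of all 10614 genes passed as higher. The gene that rose was Rapgef4, a cAMP-activated exchange factor for Rap GTPases that acts apart from protein kinase A. It measured 14.1, 10.6, 14.1 and 10.1 FPKM in deficient replicates and 4.77, 6.20, 6.22 and 5.55 FPKM in sufficient ones (log2 fold change 0.95, SE 0.16, limma adjusted p = 0.0319). Csk, an inhibitory kinase of the T cell receptor pathway that protein kinase A activates and the most abundant gene of this list, was at 215 ± 1.76 against 219 ± 7.54 FPKM (limma adjusted p = 0.919).

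Of the 12 genes of the CREB family, the factors that cAMP activates, and their coactivators and kinases, 1 fell and 0 rose. Over all genes tested, 0.697% were called lower and 1.93% higher. Crem, a CREB relative whose short repressor form is induced by cAMP, measured 4.94, 6.40, 5.62 and 5.02 FPKM in deficient replicates and 14.7, 16.9, 12.7 and 10.6 FPKM in sufficient ones. It fell to 40.0% of the sufficient level (log2 fold change -1.16, SE 0.19, limma adjusted p = 0.0319). A value per gene does not separate its forms. Sik1, a kinase that restrains CREB coactivators and is itself a CREB target, measured 55.1, 18.7, 57.3 and 19.0 FPKM in deficient replicates and 132, 63.3, 124 and 36.1 FPKM in sufficient ones. Its libraries differed 2.98 times within the deficient and 3.54 times within the sufficient group, and the groups overlapped (log2 fold change -1.003, SE 0.58, limma adjusted p = 0.420).

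**Figure D4:**
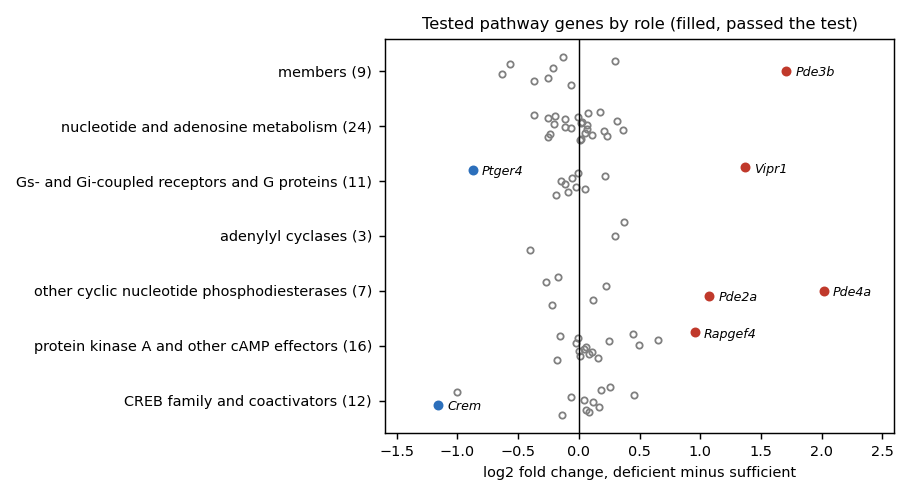
Log2 fold change (deficient minus sufficient) of every tested pathway gene, with 1 row per role and the number tested in brackets. Filled points passed the test, in red where higher and blue where lower, and the 7 named points range from -1.16 for Crem to 2.02 for Pde4a.

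These calls rest on few libraries. Without either deficient library none of Pde3b and the 6 other pathway genes passed limma's test, although each kept its direction; the log2 fold change ranged most for Rapgef4 (0.75 and 1.16) and Vipr1 (1.09 and 1.65). Without sufficient replicate 2 only Pde3b (adjusted p = 0.0228) and Pde4a kept their calls among the 7. The same held without sufficient replicates 1 and 3, where limma's adjusted p was 0.0507 for Pde2a, 0.0534 for Ptger4, 0.0654 for Crem, 0.0673 for Rapgef4 and 0.0685 for Vipr1. Without sufficient replicate 4, Rapgef4 (0.0770) and Vipr1 (0.114) lost theirs. With no filter on low values only Pde4a (0.0390) kept its call, beside 0.0712 for Pde2a, 0.0666 for Ptger4, 0.103 for Crem, 0.101 for Rapgef4 and 0.143 for Vipr1, and with totals made equal Ptger4 (0.0940) and Crem (0.0821) lost theirs. Macrophage markers also rose in the same libraries, with 10 of 15 tested markers called, as did 4 of 7 tested NK and innate-like markers. Between the deficient libraries Pde4a and Pde2a were at ratios of 0.992 and 0.971 and Rapgef4 and Vipr1 at 1.36 and 1.504. In the same comparison the macrophage sum had a ratio of 1.89, and the NK sum, which was mostly Fcer1g, 0.889. Within the macrophage list Itgam and Ly6c2 ran the other way from the sum. The part of such cells in these results was not tested.

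**Figure D5:**
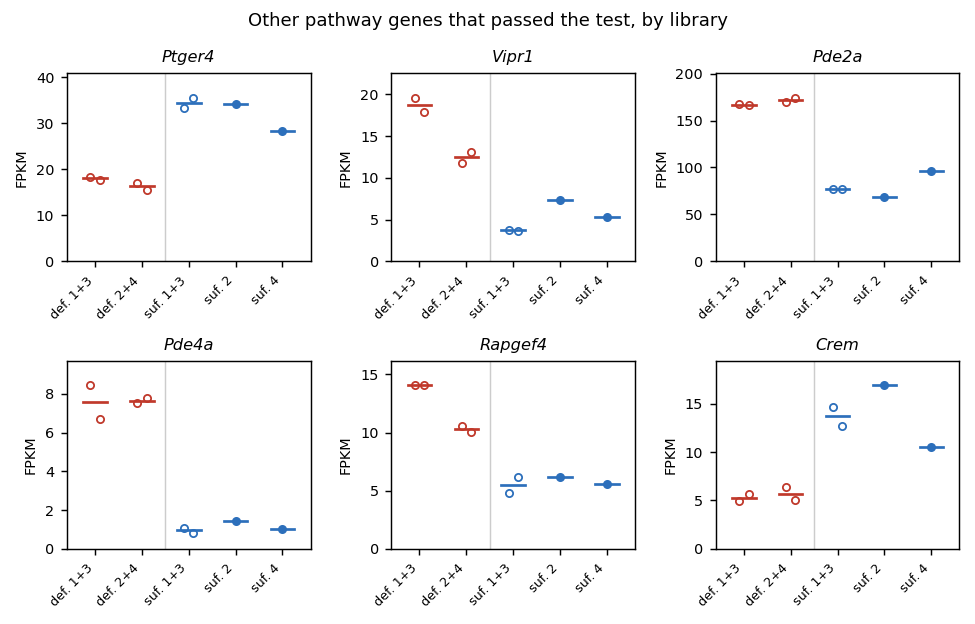
FPKM of the 6 pathway genes beside the members that passed the test, by independent library, with points and bars as in the plot of the members. Ptger4 and Crem are lower and Vipr1, Pde2a, Pde4a and Rapgef4 higher in both deficient libraries than in any sufficient one.

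For Pde3b the 3 genes nearest in profile, by the root-mean-square distance of centred log2 values over the 5 libraries, were Anxa2 (0.0774), Qrfp (0.146) and Aoah (0.151). Anxa2, an annexin, averaged 144 FPKM without Bcl11b and 46.0 FPKM with it, so it shared the size of the difference at a higher level. Qrfp averaged 3.84 against 0.472 FPKM and Aoah 2.46 against 0.114 FPKM, so both passed the filter only through the deficient libraries. In FPKM they rose 8.13 and 21.6 times, against 3.85 times for Pde3b, so their nearness rests on the log2(FPKM + 1) scale. For Entpd1 the 3 nearest genes were Crip1 (0.0372), Mrpl44 (0.0373) and Decr1 (0.0538). Each of these was, like Entpd1, lower in the libraries of replicates 1 and 3 than in the other libraries of its group. Likeness to Pde3b or Entpd1 was the rule of choice, so the shared patterns are no separate result.

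In the GRCm38 annotation (GENCODE M21) the members lie on 9 chromosomes. Pde3b (ENSMUSG00000030671.9) spans chromosome 7 from 114415281 to 114539251 on the plus strand, Nt5e (ENSMUSG00000032420.8) chromosome 9 from 88327197 to 88372092 on the plus strand and Entpd1 (ENSMUSG00000048120.16) chromosome 19 from 40612366 to 40741602 on the plus strand. No annotated gene overlaps Pde3b, Nt5e, Ada, Adora2a, Pde4b or Prkaca. Entpd1 contains 3 genes on its own strand, among them the processed pseudogenes Gm16027 and Gm8783, and Pde4d contains 5 small RNA genes or pseudogenes. Pde2a is overlapped on its own strand by the coding gene Gm45837, so the split of its reads is uncertain. Genes on the opposite strand overlap Pde7a (Gm16093), Rapgef4, Ptger4 (Ttc33) and Crem (Gm6225). The labels do not say whether counting used strand, and without it reads of such partners cannot be told apart.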

How the data were processed

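The deposited table held FPKM per gene, made by the authors; the unit is taken from the name of the table and its values, and any further scaling between libraries is not stated in the labels. Per the labels' protocols, cells were sorted at over 97% purity and stranded total RNA libraries had 15 PCR cycles. The mm10 build, Cuffdiff 2.2.1 and Cuffnorm 2.2.1, STAR 2.5.1, cutadapt 1.12, Trim Galore 0.4.2 and FastQC appear in the submitters' processing notes without settings. By their names, 8 of the 16 value columns belonged to these samples; the remaining 8 were not used. Samples were grouped by title. The members and lists were chosen with earlier results of these data known.

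Columns of a group whose spread was under 1.5 times counting noise, at 150 to 500 fragments, were averaged. Fragment numbers rest on genes with a single annotated transcript and are approximate. Genes averaging 1 FPKM or more over the libraries were tested with limma 3.58.1 in R 4.3.3 on log2(FPKM + 1), with a mean-variance trend, group as the only term, two-sided p-values and Benjamini-Hochberg adjustment over all 10614 genes (threshold 0.05). The script was tested on simulated data. No count model was run, since read numbers could not be recovered gene by gene. Intervals are limma's 95% intervals. Beside the members, Bcl11b and Foxp3, the text names in each role list the called genes, the gene with the lowest p and the most abundant gene, and the 3 nearest profiles of Pde3b and Entpd1. Alternatives were other pseudocounts, filters, scalings, robust empirical Bayes, all columns as libraries, a replicate block, columns or libraries left out and, added after seeing the data, only the deeper or shallower column of each averaged pair.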

Additional observations from a re-analysis of the deposited data

How the results depend on the processing

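Over 22 alternatives the log2 fold change of Pde3b ranged from 1.57 to 1.94 and its limma adjusted p from 6.126e-05 to 0.0912. All 9 members kept their direction except Ada, at 0.12 with totals made equal and at -0.1142 to 6.088e-05 with columns or libraries left out (the highest without sufficient replicates 1 and 3), and Prkaca, at 0.0769 with totals made equal. Of the other named genes, Nt5c turned to 0.00652 with totals made equal, and Csk to 0.18 there, 0.11 with quantile normalization, -0.0599 to 0.00425 with columns or libraries left out (the highest without deficient replicate 3) and 0.0102 with the shallower columns only. The cause was not tested.

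Of all genes, 205 were called higher and 74 lower. The counts were 124 higher with a pseudocount of 0.1, 91 and 8 with no filter, 73 and 40 with a filter at 5 FPKM and 136 higher with the shallower columns only. With totals made equal they were 338 and 30, so that 91.8% of calls were higher, against 73.5%. With the 8 columns as separate libraries they were 1004 and 847. Leaving out columns or libraries gave 8 to 216 higher and 0 to 81 lower, where the 0 from limma stood beside 591 at an unadjusted p under 0.05; a fit with fewer libraries has less power, and where 1 deficient library is left it is assumed to vary like the others.

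Of the members, 0 were called higher with no filter (limma, 2 at an unadjusted p under 0.05), and 0 to 1 with columns or libraries left out (limma, 1 unadjusted at each 0). In limma, 1 was called lower with robust empirical Bayes (Nt5e) and 2 with 8 columns (Nt5e and Pde4d). Of the other pathway genes, 1 was higher and 0 lower with no filter (limma, 6 lower at an unadjusted p under 0.05), 2 higher with the filter at 5 FPKM, 0 lower with totals made equal (2 unadjusted), 9 higher and 6 lower with 8 columns, and 0 to 4 higher and 0 to 2 lower with columns or libraries left out (limma, at each 0 there were 6 to 9 higher and 4 to 7 lower at an unadjusted p under 0.05).

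Same-numbered columns of the groups share a replicate number in their titles. Their deviations from the group means had correlations across genes of 0.0293, 0.0566, 0.126 and 0.0911 for numbers 1 to 4. Deficient replicates 2, 3 and 4 correlated best with their own number, and deficient replicate 1 with sufficient replicate 2 (0.13). Whether columns of 1 number share a batch was not tested. With the replicate block on the 8 columns, 776 genes were higher and 642 lower, with 1 member higher and 2 lower, and 8 other pathway genes higher and 5 lower. Among the latter was Sik1 (log2 fold change -1.24, limma adjusted p = 0.00279, against 0.11 for the 8 columns without the block). It was lower in the deficient sample of each of the 4 numbers. Fits on 8 columns count near-identical columns as separate libraries, and numbers 1 and 3 repeat 1 comparison. The p-values of these fits therefore overstate the evidence. Over the 5 independent libraries limma's adjusted p for Sik1 was 0.420. Depth limits genes near 1 FPKM most.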

Other observations

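In both groups Entpd1 and Sik1 had larger ratios between libraries of a group than between the group means. Of the members, Adora2a (2.01), Prkaca (1.20) and Ada (1.18) did so in the sufficient group only. The averaged level of Entpd1 in the deficient library of replicates 1 and 3 was 0.689 times that of replicates 2 and 4, and sufficient replicates 1 and 3 were likewise the lowest of their group. Sik1 ran the opposite way, at 56.2 and 18.8 FPKM in these deficient libraries and at 128 FPKM in sufficient replicates 1 and 3 against 63.3 and 36.1 FPKM in sufficient replicates 2 and 4.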
